A study of Mus musculus with 168 samples.

Results

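The expression of genes in the hippocampus of mice that had not been exposed to hypoxia was set against that in the rest of the brain. The 3 hippocampal arrays of the 0hr time point were compared with the 18 others of that time point, 21 arrays in all, in a series that holds 3 arrays for each of 7 regions at 8 time points. The others came from cerebellum, pons and medulla, midbrain, thalamus, striatum and cerebral cortex, 3 arrays a region. All were from adult male C57BL/6 mice aged 8 to 9 weeks. The sample titles give the time point 0hr, and these mice were taken as the sham-treated controls of the study's methods. No array of this comparison came from a mouse given 8% oxygen. The later groups were the same 7 regions after 1 and 3 hours at 8% oxygen (H1, H3) and 1, 3, 6, 12 and 24 hours after the return to air (R1 to R24), again 3 arrays a region and time point. Total RNA of each dissected region was hybridised to the Affymetrix Mouse Genome 430 2.0 array, and a value is a linear intensity of a probe set, the group of probes that reads 1 transcript. The replicate number was taken as the mouse, so that each hippocampal array was set against the arrays of its own number.

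The hippocampus holds a single folded sheet of excitatory neurons, the pyramidal cells of the fields CA1, CA2 and CA3, interlocked with the small, densely packed granule cells of the dentate gyrus. Granule cells send mossy fibres to CA3, CA3 cells send collaterals to CA1, and CA1 cells project out through the subiculum. The circuit is known for memory and spatial coding, for plastic glutamatergic synapses, for a high density of corticosteroid and peptide receptors, and for neurons that are born throughout adult life in the dentate gyrus. Its neurons derive from the same embryonic telencephalic wall as those of the cortex.

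The 21 arrays of the 0hr mice had median intensities of 40.0 to 48.9 and 24.4% to 30.2% of their values under 16, with hippocampal array 3 at the low end of the medians and the high end of the share. No 2 arrays held identical values. The hippocampal arrays correlated with each other more closely than with any other region, and the nearest array of another region was always one of cortex. Differences are given on the scale of log2(intensity + 16), which understates the change of dim genes, as hippocampus minus the other regions, ± the standard error of the fit. Tests are limma's moderated tests with Benjamini-Hochberg adjustment over all 45037 probe sets, called at an adjusted p under 0.05, and a gene is represented by its brightest probe set. In whole tissue, fewer cells of a type and less RNA per cell cannot be told apart. The study's methods give 3 mice for each time point, the labels do not say that a replicate number is 1 mouse, and the p-values measure only the spread between these dissected samples.

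Against the mean of the other 6 regions, 1647 genes were higher in hippocampus (9.05% of 18193) and 1807 were lower (9.93%), of which 296 and 140 differed at least 2-fold. The stricter question of which genes were higher in hippocampus than in each of the 6 regions was answered by 164 genes (0.901%), and 55 genes were lower than in each (0.302%). Of the 1647 genes above the mean, 799 had a higher level still in some other region. Cortex was the next highest region for 74 of the 164 genes, striatum for 26, midbrain for 20, pons and medulla for 18, and thalamus and cerebellum for 13 each. The genes above each region had a median difference of 1.23 from the mean of the 6 and a median margin of 0.617 over the next region, and 38 of them were at least 2-fold above it. All 3 hippocampal arrays lay above all 18 others for 162 of them (1.89% of all genes had such non-overlapping arrays). Counts of calls depended on every animal: without replicate 1, 2 or 3 in all regions, 87, 77 and 95 genes were above each region, 21, 18 and 15 were below each (33 without hippocampal array 3), 1122, 1015 and 1065 were above the mean, and 1018, 962 and 1011 were below it.

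Desmoplakin (Dsp), which anchors intermediate filaments to desmosomes, had the widest margin of all. Its intensity was 265, 239.5 and 258 in the 3 hippocampal arrays, against 2.74 to 19.7 (median 12.3) in the other 18. The groups lay far apart, and every other region was near the bottom of the scale. The difference from the mean was 3.27 ± 0.13 (adjusted p = 1.55e-10), and that from the next highest region, pons and medulla, was 3.06. Lactase (Lct), the milk sugar enzyme of the gut, read 272, 253 and 205 in hippocampus, against 6.11 to 34.9 (median 15) elsewhere, a difference of 3.06 ± 0.13 (adjusted p = 3.25e-10). Spink8, a Kazal-type serine protease inhibitor, read 268, 236 and 259 in hippocampus, against 11.9 to 45.6 (median 30.0) elsewhere, a difference of 2.58 ± 0.14 (adjusted p = 4.53e-09). For all 3 genes the dimmest hippocampal array was at least several times brighter than the brightest array of any other region. Another 5 genes stood about 2 log2 units above their next region, namely Olfml2b, an olfactomedin-like secreted protein (2.11 over cortex), the protocadherin Pcdh20 (2.06 over cerebellum), Fibcd1, a membrane receptor for acetylated sugars (2.02 over midbrain), the neuropeptide Y receptor Npy2r (2.02 over thalamus) and Thsd4, a matrix protein of the thrombospondin type 1 family (2.00 over midbrain).

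**Figure D1:**
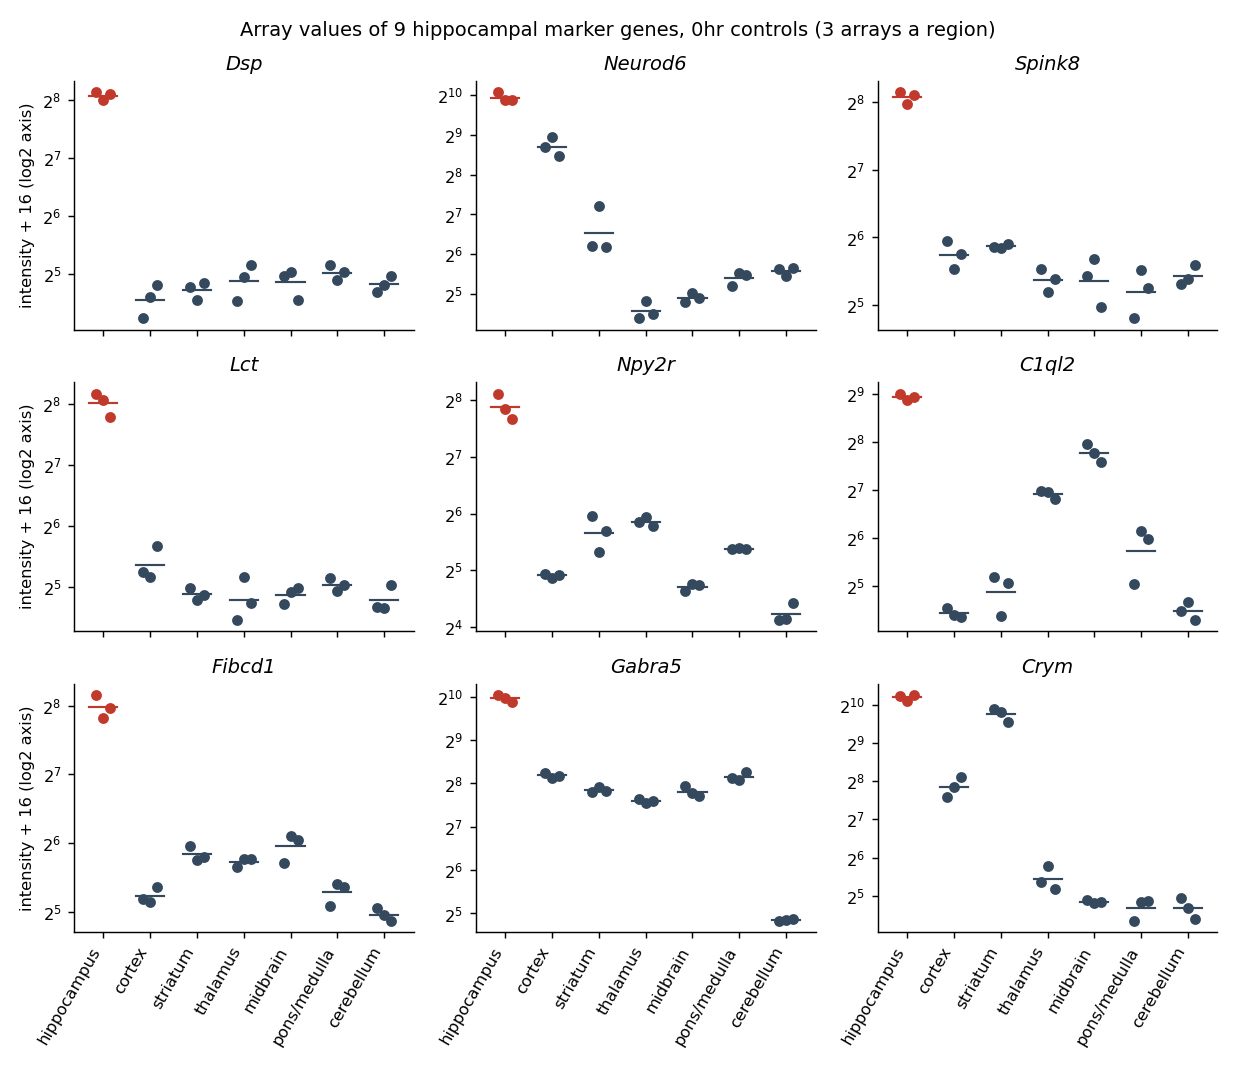
Intensity + 16 on a log2 axis in each of the 21 arrays of the 0hr mice for 9 genes that led the comparison. Each point is 1 array, in the order of replicates 1 to 3 within a region, hippocampus is in red at the left, and a bar marks the mean of the log2 values. Dsp, Lct, Spink8, Fibcd1 and Npy2r stand high in hippocampus alone, C1ql2 has a second level in thalamus and midbrain, Neurod6 in cortex and Crym in striatum, and Gabra5 is about equally lower in 5 regions and near the floor in cerebellum.

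Some of the genes furthest above the mean of the 6 regions had high levels in cortex or striatum as well. Crym, a thyroid hormone binding protein, read 1182, 1093 and 1217 in hippocampus, against 4.25 to 932 (median 17.6) in the 18 other arrays, and the difference of 4.0 ± 0.14 from the mean (adjusted p = 5.24e-11) shrank to 0.45 over striatum, where no difference was called (adjusted p = 0.154). Neurod6, a basic helix-loop-helix transcription factor of pyramidal neurons, read 1062, 924 and 919.8, against 4.92 to 477 (median 29.3) elsewhere, a difference of 3.99 ± 0.14 (adjusted p = 6.08e-11), and it stayed 1.24 above cortex. Without 4 arrays of other regions with high choroid plexus sums, described below, the difference from cortex was 1.19. It was no longer called, but cortical arrays 1 and 3 were among the 4, so cortical array 2 alone was left for cortex. Dendrin (Ddn), a postsynaptic protein whose mRNA travels into dendrites, and telencephalin (Icam5), an adhesion molecule of telencephalic dendrites, differed by 3.59 ± 0.13 and 3.00 ± 0.14 from the mean but by only 0.30 and 0.61 from cortex, which was not called for either (adjusted p = 0.392 and 0.0586). Wipf3, an actin regulator, and Cpne6, a calcium-dependent copine, were 2.73 ± 0.09 and 2.62 ± 0.09 above the mean and above each region. Gastrin-releasing peptide (Grp), a neuropeptide, read 354, 266 and 317 in hippocampus, against 3.08 to 103 (median 45.9) elsewhere, a difference of 2.57 ± 0.16 (adjusted p = 1.3e-08).

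The 300-base windows around the start sites of 3 of these genes, 250 bases before to 50 after, are shown to set the widest margin (Dsp), the widest difference among transcription factors (Neurod6) and the leading receptor (Npy2r) side by side. They were taken from RefSeq annotation of build GRCm38.p6, read 5′ to 3′ on the strand of the gene, with every CG dinucleotide in capitals.
Dsp, chr13:38151044-38151343, plus strand: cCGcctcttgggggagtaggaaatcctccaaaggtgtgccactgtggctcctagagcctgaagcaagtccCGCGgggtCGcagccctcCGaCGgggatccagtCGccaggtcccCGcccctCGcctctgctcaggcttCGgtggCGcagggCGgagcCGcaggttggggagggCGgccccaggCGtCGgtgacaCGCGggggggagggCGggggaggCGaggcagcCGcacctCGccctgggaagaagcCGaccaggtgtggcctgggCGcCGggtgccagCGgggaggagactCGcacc
Neurod6, chr6:55681214-55681513, minus strand: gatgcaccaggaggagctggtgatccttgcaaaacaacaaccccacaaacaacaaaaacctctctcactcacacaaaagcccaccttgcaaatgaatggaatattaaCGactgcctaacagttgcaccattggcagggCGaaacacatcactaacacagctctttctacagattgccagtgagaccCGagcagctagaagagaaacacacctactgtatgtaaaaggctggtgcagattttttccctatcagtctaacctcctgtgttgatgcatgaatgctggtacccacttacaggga
Npy2r, chr3:82548036-82548335, minus strand: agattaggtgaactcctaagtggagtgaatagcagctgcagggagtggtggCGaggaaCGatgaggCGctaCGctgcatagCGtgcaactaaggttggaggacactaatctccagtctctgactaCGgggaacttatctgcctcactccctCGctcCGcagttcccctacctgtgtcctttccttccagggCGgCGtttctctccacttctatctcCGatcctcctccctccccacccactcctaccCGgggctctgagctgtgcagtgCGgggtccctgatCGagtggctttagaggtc
The Dsp window held 27 CG dinucleotides, the Neurod6 window 3 and the Npy2r window 14. Of the 164 genes above each region, 122 had a window in the table, 158 windows in all, with a median of 21 CG dinucleotides, against 16 in the 18109 windows of all measured genes, and 14.6% of the windows held at most 5, against 23.5%. The hexamers CAGATG and CAGCTG, which basic helix-loop-helix factors such as those of the Neurod family bind, were searched for on both strands. Either was found in 22.2% of the 158 windows, against 27.5% of those of all measured genes. Of the 3 printed windows only that of Npy2r held one, a CAGCTG at position 33 from its 5′ end. These shares describe letters in short windows and were not tested.

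The labelled tissue was compared with markers of its own cell layers. The gene lists were chosen with earlier results of these data known, so this was not an independent check. For all list counts here and below, the shares over all genes were 9.05% higher and 9.93% lower than the mean. Against cortex they were 4.92% and 4.02%. Of 18 markers of CA1 and the pyramidal cell layer, 15 were higher than the mean of the other regions and none was lower, with a median difference of 1.54 (−0.03 over all genes), and 5 were above each region. These were Neurod6, Spink8 and Fibcd1, described above, the orphan G protein-coupled receptor Gpr161 and the zinc finger repressor Zbtb20, which is needed for CA1 fate. Gpr161 read 323, 326 and 331 in hippocampus, against 48.6 to 113 (median 73.4) in the other arrays, a difference of 1.93 ± 0.10 (adjusted p = 2.52e-09). Zbtb20 read 1166, 1358 and 1349 in hippocampus, against 344 to 827 (median 473) elsewhere, a difference of 1.35 ± 0.07 (adjusted p = 1.95e-09). The matricellular protein Ccn3 and the spine kinase Itpka were 2.44 ± 0.14 and 2.61 ± 0.14 above the mean and 0.23 and 0.33 above cortex, not called (adjusted p = 0.581 and 0.366). Wfs1, the endoplasmic reticulum protein that outlines CA1 in sections, was only 0.80 ± 0.06 above the mean, and it was −0.27 from striatum, the region with the highest level. The receptor kinase Tyro3 differed by −0.15 ± 0.12, which was not called (adjusted p = 0.544).

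The short CA2 list split in both directions. Of 10 measured markers 4 were higher, 2 lower and 4 not called, with a median difference of 0.21. The mineralocorticoid receptor Nr3c2, the high-affinity receptor for corticosterone, was the strongest, at 635, 569.6 and 582 in hippocampus, against a lowest value of 76.6 and a median of 107 in the other 18 arrays, all of which lay below, a difference of 2.28 ± 0.08 (adjusted p = 5.67e-11). The signalling scaffold Rgs14 read 474, 544 and 504, against 67.4 to 456 (median 114) elsewhere, a difference of 1.60 ± 0.07 (adjusted p = 4.04e-10). Purkinje cell protein 4 (Pcp4), a calmodulin regulator, went the other way: with 1239.8, 1193 and 1259 in hippocampus, against 1694 to 4238 (median 2967) elsewhere, it was below each of the other regions (difference −1.19 ± 0.05, adjusted p = 5.56e-10). The adhesion molecule Amigo2 was 0.31 ± 0.11 from the mean (adjusted p = 0.0888), not called, but 1.15 above cortex (adjusted p = 0.000119). The BMP antagonist Sostdc1 was 1.95 ± 0.36 above the mean (adjusted p = 0.00108), with 64, 164 and 269.5 in hippocampus, against 2.11 to 195 (median 16.9) elsewhere, and array 1 was the lowest of the 3.

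Of 15 measured CA3 markers 10 were higher, 1 was lower and none was above each region, with a median of 0.47. Against cortex alone only 3 were higher and 1 was lower. The copine Cpne4 read 723, 672 and 632 in hippocampus, against 7.58 to 505 (median 247) elsewhere, a difference of 1.66 ± 0.16 (adjusted p = 1.9e-06). The potassium channel Kcnq5 and the adhesion molecule Nectin3 were 1.12 ± 0.08 and 1.02 ± 0.09 above the mean. Coch, a matrix protein best known from the inner ear, was −0.79 ± 0.13 (adjusted p = 0.000314).

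Of the 27 gene lists, that of dentate granule cells held the most genes above each region. Of 22 measured, 16 were higher and none lower, with a median of 0.93, and 7 were above each of the 6 regions (0.901% of all genes), namely Dsp, Lct, C1ql2, the calcium channel subunit Orai2, the ciliary transcription factor Rfx3, the oxysterol hydroxylase Cyp7b1 and the zinc finger factor Glis3. The synaptic organiser C1ql2, which mossy fibres secrete, read 497, 451 and 475 in hippocampus, against 3.77 to 230.4 (median 18.9) elsewhere, a difference of 3.24 ± 0.19 (adjusted p = 6.56e-09). Its highest arrays outside hippocampus were those of midbrain and thalamus, and those of cortex were close to the floor. Its relative C1ql3 was 1.93 ± 0.11 above the mean and 0.40 above cortex, not called (adjusted p = 0.12), while a dimmer C1ql3 probe set, 1.81 above the mean, was above each region. Prox1, the homeobox factor that defines granule cell fate, read 99.2, 135 and 124 in hippocampus, against 12.7 to 120.1 (median 43.3) elsewhere: it was 1.07 ± 0.14 above the mean (adjusted p = 3.94e-05) and 1.82 above cortex, 0.11 over thalamus, and its other 2 probe sets differed by 1.36 and 1.25. Calbindin (Calb1), dense in granule cells but also in cortex, striatum and Purkinje cells, was −0.19 ± 0.08 (adjusted p = 0.158), not called.

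Lists for rarer or outlying cells gave fewer calls. None of 5 markers of mossy cells of the hilus was higher, and the dopamine receptor Drd2 was lower (−1.56 ± 0.12). Calretinin (Calb2) was 2.26 above cortex (adjusted p = 0.000198), though −0.56 ± 0.23 from the mean of the 6. None of 6 markers of the subiculum was higher and 3 were lower, the vesicular glutamate transporter Slc17a6, the Notch-like protein Dlk1 and the contactin Cntn6, with differences of −1.33 ± 0.24, −1.33 ± 0.13 and −1.19 ± 0.08. Of 13 genes of the neurogenic niche 3 were higher and 2 lower (9.05% and 9.93% of all genes). Hopx, an atypical homeobox protein of quiescent neural stem cells, was 0.74 ± 0.09 above the mean (adjusted p = 1.61e-05), and doublecortin (Dcx), of immature neurons, differed by 0.13 ± 0.16 (adjusted p = 0.731).

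**Figure D2:**
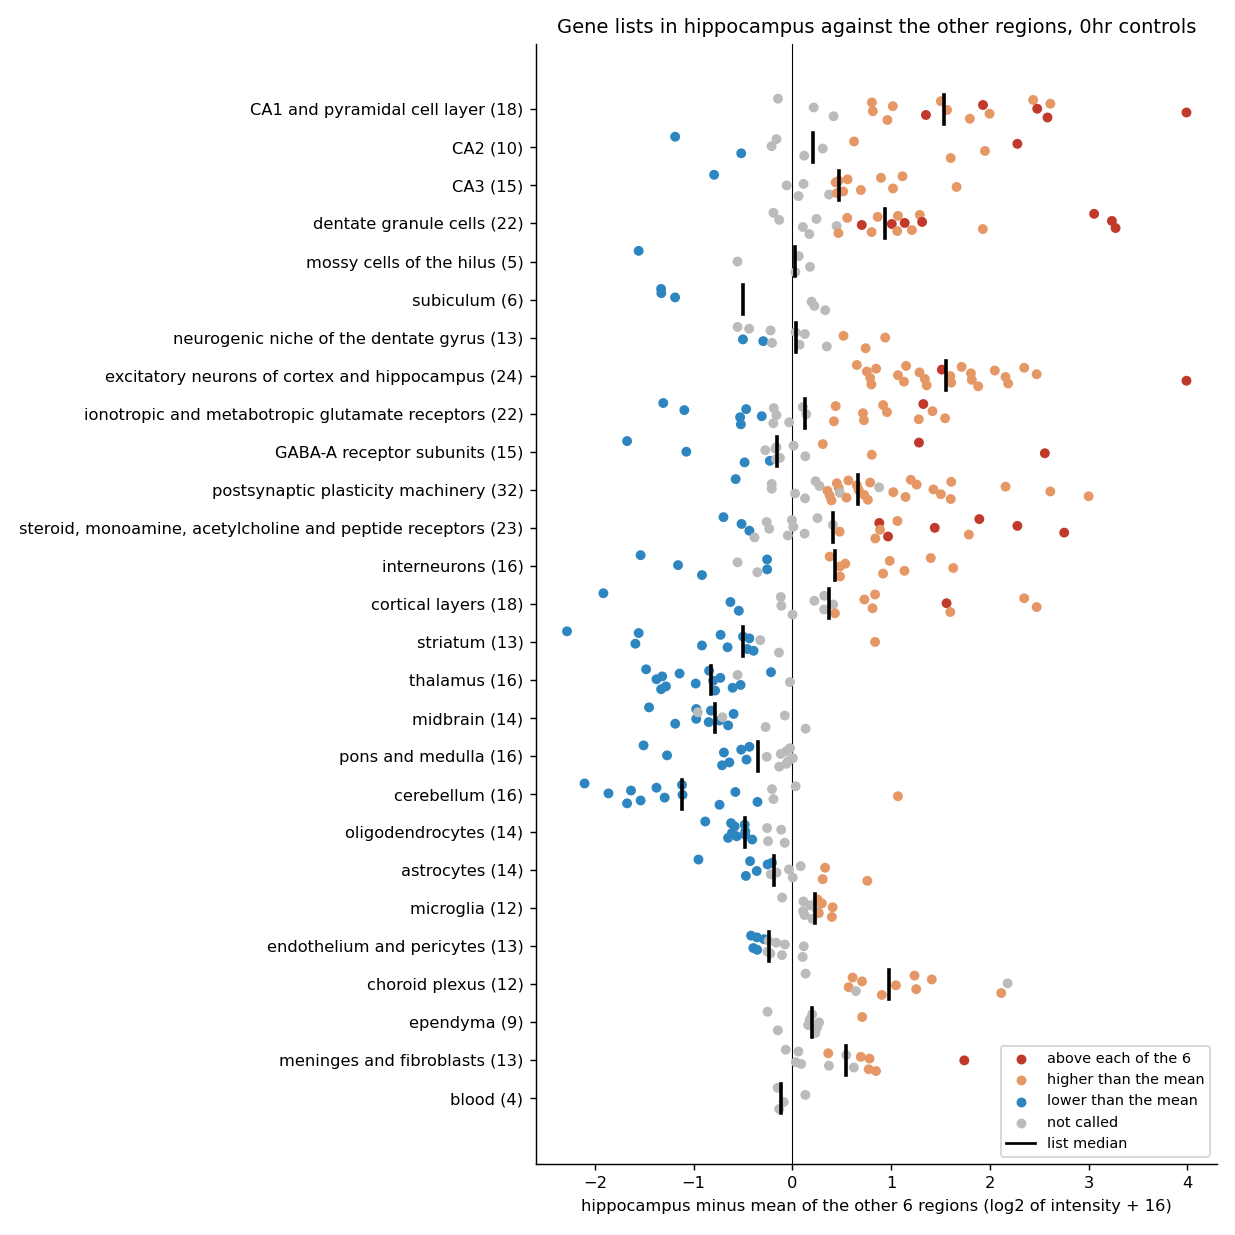
Difference between hippocampus and the mean of the other 6 regions, in log2 of intensity + 16, for each measured member of 27 gene lists, with the number measured in brackets. Each point is a gene, black bars are list medians and colours give the call. The lists of CA1, dentate granule cells and excitatory neurons lie to the right of 0, with medians of 1.54, 0.93 and 1.56, and those of striatum, thalamus, midbrain and cerebellum to the left.

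All 24 measured markers of the excitatory neurons of cortex and hippocampus were higher in hippocampus than in the mean of the other regions, with a median of 1.56, but against cortex alone 5 were higher, 3 lower and 16 not called. The vesicular glutamate transporter Slc17a7 read 1690.0, 1776 and 1432 in hippocampus, against 97.4 to 2277 (median 321) elsewhere, and the brightest arrays elsewhere were those of cortex (hippocampus minus cortex −0.22, adjusted p = 0.68). Neurogranin (Nrgn), a calmodulin-binding postsynaptic protein, and Camk2a, the kinase of long-term potentiation, were 2.16 ± 0.20 and 1.61 ± 0.19 above the mean and −0.57 and −0.32 from cortex (adjusted p = 0.247 and 0.561). The transcription factors Fezf2, Bcl11b, Lhx2, Emx2 and Neurod2 lay 2.47 ± 0.13, 2.35 ± 0.17, 2.19 ± 0.11, 1.81 ± 0.12 and 1.82 ± 0.12 above the mean, and of these only Bcl11b differed from cortex (0.99). Epha4, an ephrin receptor, was above each region (1.51 ± 0.09 from the mean). Hippocalcin (Hpca), a calcium sensor, was 1.71 ± 0.05 above the mean and 0.68 above cortex, but −0.09 from striatum. Tbr1 and Mef2c, transcription factors of cortical projection neurons, were above the mean by 1.60 ± 0.09 and 0.85 ± 0.08 but below cortex, with differences of −1.49 and −1.60 (adjusted p = 1.28e-06 and 1.41e-07). If the mean was taken over cortex and striatum alone, the 2 differences turned to −0.51 and −0.88.

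Cortex was the nearest region, and set against it alone hippocampus had 895 genes higher (4.92%) and 732 lower (4.02%). The largest excesses over cortex were in C1ql2 (4.50), Dsp (3.53), Cabp7, a calcium-binding protein (3.00), Npy2r (2.97) and Fibcd1 (2.75), all with adjusted p of 2.92e-08 or less. Cabp7 read 1261, 1175 and 1146 in hippocampus, against 117 to 878 (median 299) elsewhere, with pons and medulla the next region. The largest deficits were in Dkkl1, a dickkopf-like secreted protein (−2.60), Lamp5, a membrane protein of cortical neurons (−2.34), Rasgef1c, an exchange factor for small G proteins (−2.16), the keratin Krt12 (−2.05) and the potassium channel Kcnh5 (−2.04). Dkkl1 and Kcnh5 were near the floor in hippocampus, at 3.74, 17.2 and 3.38 and at 1.14, 11.2 and 5.56, whereas Lamp5 kept 230.3, 279 and 273. Of 18 markers of cortical layers 10 were lower than in cortex and 2 higher, among them the upper-layer factor Cux2 (−1.61) and the layer 4 factor Rorb (−1.47). The counts against cortex fell with fewer arrays. There were 377, 284 and 360 genes higher and 371, 282 and 356 lower without replicate 1, 2 or 3. Without hippocampal array 3, 577 were higher. The counts fell further without 4 arrays of other regions described below. Cortical arrays 1 and 3 were among these, so cortical array 2 alone was left for cortex.

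**Figure D3:**
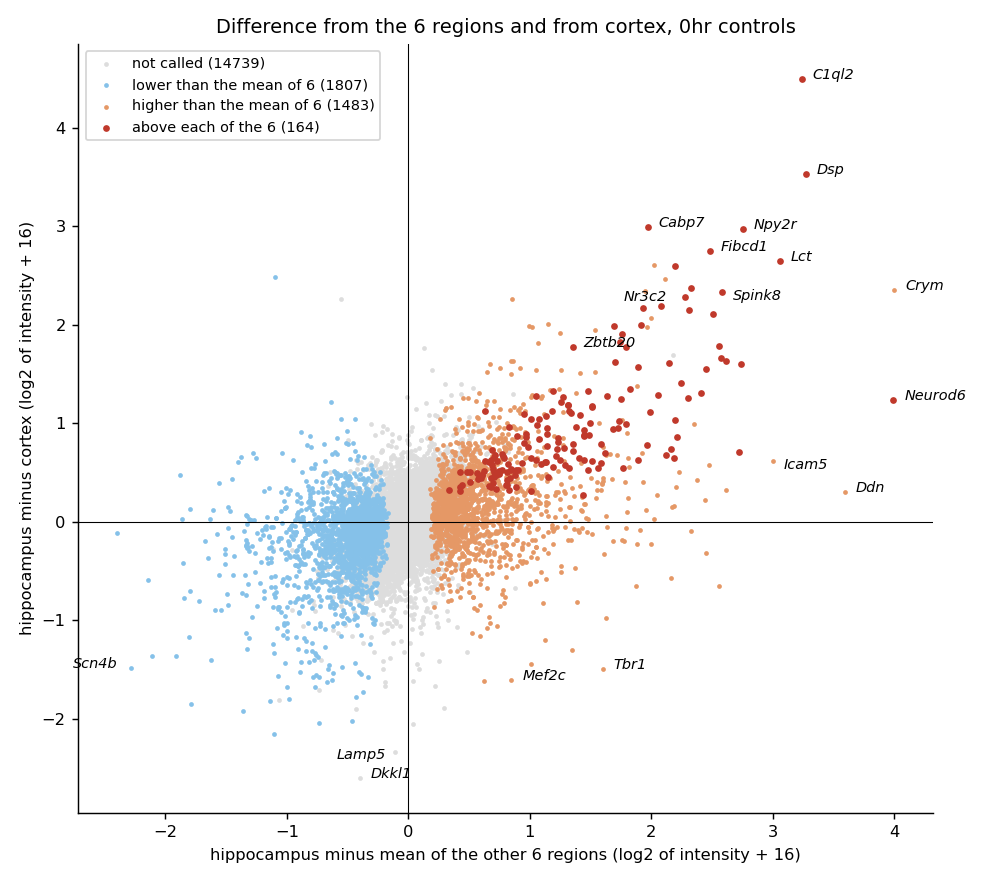
Difference of hippocampus from the mean of the other 6 regions (horizontal axis) and from cortex (vertical axis), in log2 of intensity + 16, for 18193 genes, coloured by call. The 164 genes above each region fill the upper right, with C1ql2 at 3.24 and 4.50, while Ddn and Icam5 lie far right but close to the cortex line and Tbr1 and Mef2c lie right of 0 and below it.

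Receptors for transmitters and hormones differed in both directions. Of 22 measured glutamate receptor genes 10 were higher and 6 lower than the mean, and only 1 was above each region. Against cortex 3 were higher and 4 lower. The AMPA receptor subunit Gria1 was above each region, with 1784, 1889 and 2116 in hippocampus, against 371 to 1442 (median 774) elsewhere, a difference of 1.33 ± 0.09 (adjusted p = 5.56e-08). Its relative Gria4 was below each region, with 270.2, 256 and 289 in hippocampus, against 308 to 1839.7 (median 532) elsewhere, a difference of −1.10 ± 0.08 (adjusted p = 4.94e-08). Arrays of hippocampus thus lay wholly above the rest for 1 AMPA subunit and wholly below it for another. Gria2, which sets the calcium permeability of AMPA receptors, the NMDA receptor subunit Grin2b and the metabotropic receptor Grm5 were 0.96 ± 0.14, 1.55 ± 0.08 and 1.42 ± 0.06 above the mean, and the presynaptic receptor Grm4, abundant in cerebellar granule cells, was −1.31 ± 0.09.

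GABA-A receptor subunits split as widely. Of 15 measured, 4 were higher, 4 lower and 7 not called. Against cortex 3 were higher and 3 lower. Gabra5, the subunit of extrasynaptic receptors that carry tonic inhibition in pyramidal cells, was above each region. It read 1041, 982 and 933 in hippocampus, against 12.5 to 289 (median 210.3) elsewhere, a difference of 2.56 ± 0.06 (adjusted p = 1.91e-12), and its margin over cortex was 1.78. Gabra2 was above each region too (1.28 ± 0.08 from the mean), and Gabrb1 was 0.80 ± 0.10 above the mean. Gabra6 and Gabrd, subunits of cerebellar granule cells, were −1.68 ± 0.17 and −1.07 ± 0.08. Gabrd, although known from tonic inhibition of dentate granule cells as well, read 173, 166 and 174 in hippocampus, against 36.3 to 1486 (median 572) elsewhere, and was −1.56 against cortex (adjusted p = 2.41e-07).

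Of 23 measured receptors for steroids, monoamines, acetylcholine and peptides 11 were higher and 3 lower, and 6 were above each region, namely Npy2r, Nr3c2, the somatostatin receptor Sstr4, the serotonin receptor Htr1a, the nicotinic subunit Chrna7 and the neuropeptide Y receptor Npy5r. Npy2r, a presynaptic inhibitory receptor, read 262, 213 and 187 in hippocampus, against 1.47 to 46.1 (median 19.2) elsewhere, a difference of 2.75 ± 0.10 (adjusted p = 1.02e-10). Htr1a read 308, 311 and 268 in hippocampus, against 32.4 to 181 (median 114) elsewhere, with pons and medulla, where serotonergic neurons lie, the next region at a margin of 0.72. Sstr4 and Chrna7 were 1.89 ± 0.10 and 0.97 ± 0.09 above the mean, and Npy5r 0.88 ± 0.07. The muscarinic receptor Chrm1 was 1.79 ± 0.07 above the mean but −0.06 from cortex, not called (adjusted p = 0.838). The glucocorticoid receptor Nr3c1, the lower-affinity partner of Nr3c2, was not called (−0.24).

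**Figure D4:**
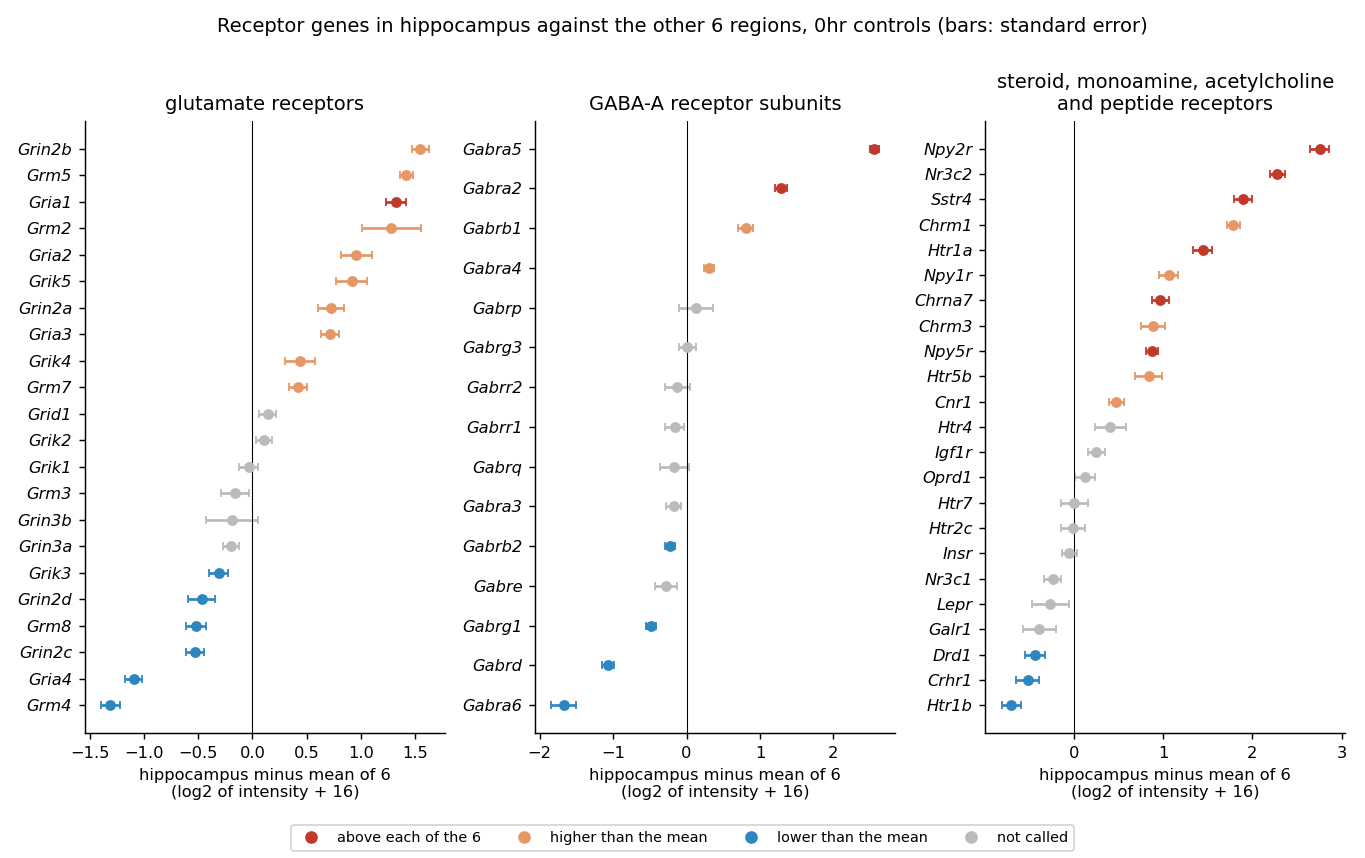
Difference between hippocampus and the mean of the other 6 regions, in log2 of intensity + 16, for the measured genes of 3 receptor lists, with standard errors as bars and colours for the call. Gria1, Gabra5, Gabra2, Npy2r, Nr3c2, Sstr4, Htr1a, Chrna7 and Npy5r are above each region, and Grm4, Gria4, Gabra6 and Gabrd lie lowest in their panels.

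Of 32 genes of the postsynaptic plasticity machinery 23 were higher than the mean and 1 was lower, with a median of 0.66, but none was above each region, and against cortex 3 were higher and 6 lower. Homer1, a scaffold of metabotropic receptors, was 0.79 ± 0.06 above the mean and −0.82 against cortex (adjusted p = 1.2e-05). Protein kinase C alpha (Prkca) was 1.26 ± 0.09 above the mean and 0.38 from cortex, not called (adjusted p = 0.0542). The calcium kinases Camkk2 and Camk4 were −1.49 and −0.90 against cortex (adjusted p = 3.96e-07 and 2.26e-05). The activity-dependent gene Arc read 119, 214 and 117 in hippocampus, against 3.66 to 1074 (median 61.2) elsewhere, and its difference of 0.88 ± 0.37 was not called (adjusted p = 0.144). Interneuron markers went in both directions, with 9 of 16 higher and 5 lower. Somatostatin (Sst) and vasoactive intestinal peptide (Vip) were 1.14 ± 0.10 and 1.63 ± 0.15 above the mean, Vip being −0.98 against cortex (adjusted p = 0.00515), and parvalbumin (Pvalb), of fast-spiking cells, was −1.54 ± 0.17.

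Other genes were lower in hippocampus. The 8 genes with the largest deficits and no overlap of arrays (0.638% of all genes lay wholly below) were Scn4b, Klk6, Car8, Foxp2, Unc13c, Sgpp2, Syt2 and Hr. The sodium channel subunit Scn4b read 88.7, 93.8 and 68.1 in hippocampus, against 223 to 2252 (median 325) elsewhere, a difference of −2.28 ± 0.11 (adjusted p = 1.13e-09). Foxp2, a forkhead factor of striatal, thalamic and deep cortical neurons, read 87.1, 88.8 and 70.9 in hippocampus, against 134 to 872 (median 383) elsewhere, a difference of −1.92 ± 0.07 (adjusted p = 4.49e-11). Both were below each region, as were Car8, a carbonic anhydrase-related protein of Purkinje cells (−2.11 ± 0.15), the synaptic priming factor Unc13c (−1.85 ± 0.08), the sphingosine phosphatase Sgpp2 (−1.80 ± 0.12) and the nuclear receptor corepressor Hr (−1.62 ± 0.14). The oligodendrocyte protease Klk6 and the synaptotagmin Syt2 of fast brainstem synapses were −2.15 ± 0.16 and −1.73 ± 0.16. Of the marker lists of regions other than cortex, 10 of 13 striatal, 14 of 16 thalamic, 9 of 14 midbrain, 8 of 16 pons and medulla and 12 of 16 cerebellar genes were lower than the mean. That mean includes the region that each list marks. Against cortex alone, 5 striatal, 2 thalamic and 2 cerebellar genes were lower, and 1, 3 and 3 were higher. No midbrain gene was lower than in cortex and 1 was higher, and no pons and medulla gene was called either way. The genes called higher than the mean in these lists were the G protein subunit Gng7 (0.84 ± 0.10) in the striatal list and Neurod1, a factor of granule neurons of dentate gyrus and cerebellum, in the cerebellar one (1.07 ± 0.12). The list of cortical layers went the other way, with 8 of 18 genes higher than the mean, 3 lower and a median of 0.37. The dopamine enzyme Th (−1.45 ± 0.10), the glycine transporter Slc6a5 (−1.51 ± 0.10), the cerebellar synaptic protein Cbln1 (−1.86 ± 0.16) and the thalamic factors Rora and Tcf7l2 (−1.48 ± 0.11 and −1.28 ± 0.22) were among the lowest.

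Markers of glia also differed. Oligodendrocyte genes were lower than the mean of the 6 regions in 10 of 14 and higher than cortex in 9 of 14, with the myelin glycoprotein Mag at −0.61 ± 0.06 from the mean and 0.51 from cortex. Astrocyte genes were lower in 6 of 14 and higher in 3, among them the intermediate filament Gfap, at 1226, 992 and 886 in hippocampus, against 275 to 1848 (median 489.6) elsewhere (0.76 ± 0.15, adjusted p = 0.00195, or 0.0829 without replicate 1), and the calcium-binding S100b was −0.95 ± 0.08. Microglial genes were higher than the mean in 5 of 12 with a list median of only 0.22, and none was called against cortex. Endothelial genes were lower than the mean in 5 of 13, and none of 4 haemoglobin or red cell genes was called.

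Choroid plexus, the secretory epithelium that lies along the hippocampal fimbria in the lateral ventricle, is a tissue that a dissected piece may hold, and its genes moved with the comparison. Of 12 measured choroid plexus markers 9 were higher than the mean of the other regions and none was lower, with a median of 0.98. The summed intensity of the list was 3637, 6204 and 6756 in hippocampal arrays 1 to 3, against 5346 to 6829 in pons and medulla and 607 to 5604 in the 15 arrays of the other 5 regions, where cortical arrays 1 and 3, midbrain array 2 and cerebellar array 3 stood above the rest at 3371, 2081, 4951 and 5604. Transthyretin (Ttr), the most abundant transcript of that epithelium, was the larger part of each hippocampal sum. It read 2933, 4664 and 4572 in hippocampus, against 68.5 to 5107 (median 608) elsewhere (difference 2.18 ± 0.91, adjusted p = 0.146, not called). The folate receptor Folr1 read 51.5, 198 and 298 and the potassium channel Kcnj13 101, 351 and 499 in the 3 hippocampal arrays, in the same order as Sostdc1 of the CA2 list, and both calls were lost when hippocampal array 2 or 3 was left out. Klotho (Kl) was 2.12 ± 0.39 above the mean. Of 13 meningeal and fibroblast markers 6 were higher, and decorin (Dcn) was above each region, at 649.7, 484 and 778 in hippocampus, against 77.7 to 315 (median 205) elsewhere (1.74 ± 0.11, adjusted p = 1.86e-08). The part of choroid plexus and meninges in the results was not tested. A fit without cortical arrays 1 and 3, midbrain array 2 and cerebellar array 3 was tried after the data had been seen. It left cortical array 2 alone for cortex. Fewer genes were then above the mean and above each region. As many CA1 and dentate genes of the lists were above the mean as before. Neurod6 of the CA1 list was no longer above each region, nor were the genes of the lists of excitatory neurons and cortical layers that had been. Some of the dentate genes and of the receptor genes for steroids, monoamines, acetylcholine and peptides lost that call too. Whether the lost calls came from choroid plexus or from the smaller number of arrays was not tested.

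The 21 mice of the later time points, from which none of the above used an array, gave the same contrast again. Per mouse, hippocampus minus the mean of the other 6 regions was tested against 0 with the 7 time points weighted equally. In these mice 4119 genes were higher (22.6%) and 4843 lower (26.6%), all 164 genes above each region at 0hr were higher, and 1327 of the 1647 genes above the mean at 0hr had a positive difference in each of these 21 mice, as did 1689 of all 18193 genes (9.28%). Of the 3086 probe sets higher at 0hr (6.85% of 45037) 3024 (98%) were higher in the later mice, and of the 3366 lower ones (7.47%) 3147 (93.5%) were lower. Neurod6 differed by 3.87 in the later mice, with 3.59 to 4.18 in single mice, against 4.26, 3.71 and 4.01 in the 3 mice of 0hr. Dsp differed by 2.94 in the later mice (2.36 to 3.40), against 3.41, 3.20 and 3.21 at 0hr, and Gabra5 by 2.54 (2.40 to 2.67), against 2.61, 2.57 and 2.49. Every one of the 24 mice showed each of these 3 differences in the same direction.

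Whether the hippocampal difference moved after hypoxia was asked at each of the 7 later time points against 0hr. No probe set was called at any of them by limma (0% of 45037), while 1770, 1995, 2366, 2571, 1727, 2358 and 2577 probe sets had an unadjusted p under 0.05 at H1, H3, R1, R3, R6, R12 and R24, where 5% of the probe sets tested is 2252. Without replicate 3, 1 probe set was called, that named Rptoros, whose hippocampal difference changed from 0hr by −1.55 at R1 (adjusted p = 0.0222) and by −1.49 at R12 (adjusted p = 0.0332) on the log2 scale. With 3 mice a time point, changes smaller than the spread between mice would not have been detectable.

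**Figure D5:**
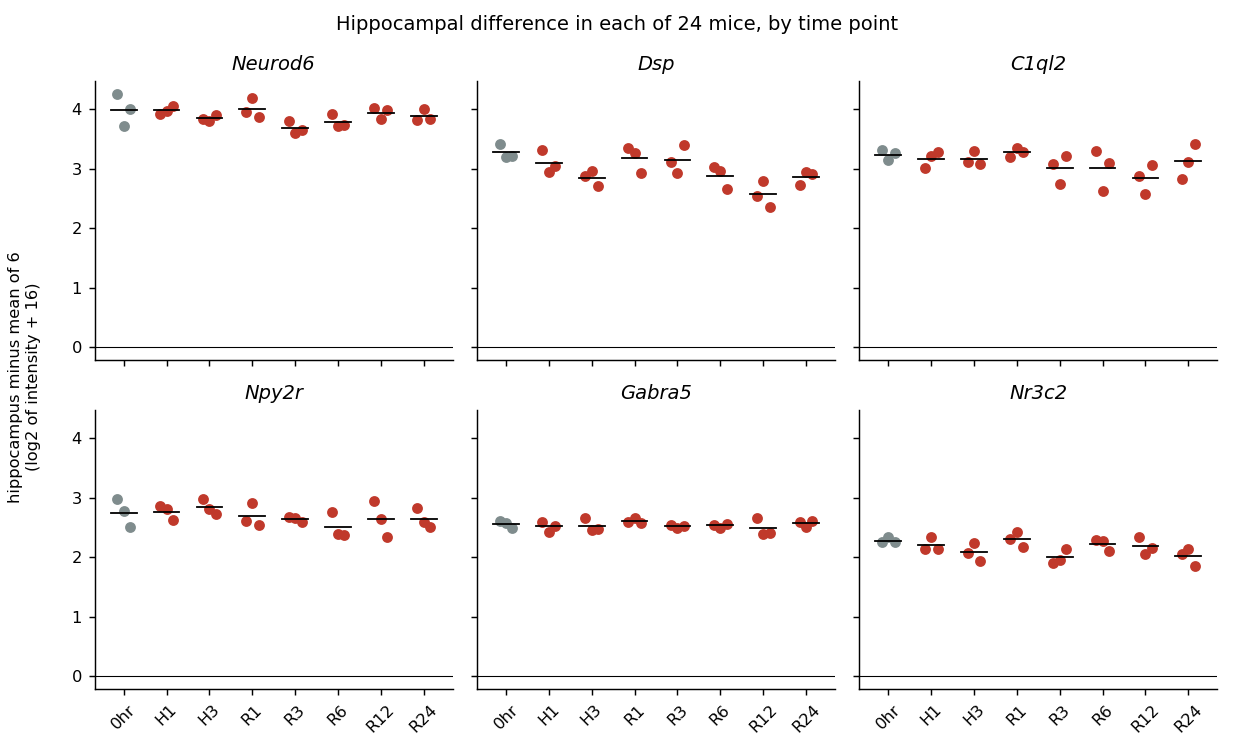
Hippocampus minus the mean of the other 6 regions in log2 of intensity + 16 for 6 genes in each of 24 mice, from 0hr (grey) through hypoxia (H1, H3) to reoxygenation (R1 to R24). Points are mice and bars are means of 3. All points lie above 0, and Neurod6 stays between 3.59 and 4.26 in every mouse.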

How the data were processed

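Expression was measured on Affymetrix Mouse Genome 430 2.0 arrays, 3 for each of 7 brain regions at 8 time points, of which the 21 arrays of the 0hr controls were used for the main comparison and the later ones for the repeat. The deposited values are linear intensities per probe set, and the authors' processing notes name GCOS 1.3. The methods name GCRMA, but the deposited intensity table has a trimmed mean of 125 on every array (2% of values cut at each end) and was not on a log scale, so it was used as global scaling in GCOS would leave it.

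After 64 control probe sets were left out, log2(intensity + 16) of 45037 probe sets was fitted with limma 3.58.1 in R 4.3.3 (lmFit and eBayes) with a term for each region and the replicate number as a block, as the comparison within a mouse required. Hippocampus was contrasted with the mean of the 6 other regions and with each of them. P-values were adjusted by Benjamini and Hochberg and called under 0.05. A gene above each region passed all 6 contrasts. The brightest probe set that names 1 gene stood for it (18193 genes). Of the genes named with a value, 71 had several probe sets, which were called alike for 51 and never in opposite directions. For the repeat, the difference was taken per mouse and fitted over time points.

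Named genes were the 15 furthest above and 8 furthest below the mean with no overlap of arrays, the 8 with the widest margin, the 5 at each end against cortex, and up to 5 higher, 3 lower and 3 not called from each list, by size. A gene of the first set is not reported here. The genes Camk4, Camkk2, Chrna7, Cyp7b1, Dcx, Emx2, Epha4, Glis3, Gpr161, Homer1, Hpca, Mag, Mef2c, Neurod2, Npy5r, Nr3c1, Prkca, Prox1, Rfx3, Slc17a7, Tcf7l2, Wfs1, Zbtb20, Rptoros and those of the last section were added after their values were seen. The comparison, its members and the gene lists were chosen with earlier results of these data known. Alternatives covered the replicate block, pseudocounts of 1 and 32, a filter on dim probe sets, quantile and median scaling, the shared variance, single animals and arrays, the regions in the mean and the probe set of a gene. The number of arrays limits the precision. Promoter windows were read from RefSeq tables with Python 3.11.15, pandas 2.3.3 and numpy 2.4.6, and figures were drawn with matplotlib 3.10.9.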

Additional observations from a re-analysis of the deposited data

How the results depend on the processing

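The replicate number as a block moved no count by 1.5 times: without it 1547 genes were higher and 1659 lower than the mean and 154 above each region, and with a random replicate block 1605, 1759 and 161. The deviations of same-numbered arrays correlated by a median of only 0.069 (−0.134 to 0.186, 63 pairs), so the arrays do not themselves show the pairing. Leaving out 1 replicate number (7 arrays) gave ranges of 1015 to 1122 genes higher, 962 to 1018 lower, 77 to 95 above each and 15 to 21 below each, 284 to 377 higher and 282 to 371 lower than cortex, and 1895 to 2074 probe sets higher and 1720 to 1892 lower than the mean; at R1 and R12 against 0hr it gave 0 to 1. Leaving out 1 hippocampal array gave 2279 to 2357 probe sets higher and 2221 to 2417 lower, 1225 to 1257 genes higher and 1232 to 1356 lower, 110 to 134 above and 33 to 44 below each region, and 577 to 641 higher and 544 to 557 lower than cortex. Differences of the 3 pairs alone gave 1776 probe sets and 941 genes higher, 1437 and 769 lower. With cortex and striatum alone in the mean, 1885 probe sets and 1044 genes were higher, 1826 and 846 lower, and these genes turned: Kcnq5 to −0.31, Nrgn −0.24, Tbr1 −0.51, Mef2c −0.88, Homer1 −0.82, Gng7 −0.67, Arc −0.38, Dcx −0.69, Slc17a6 0.43, Tcf7l2 0.30, Cbln1 0.018 and Calb2 1.91. Without cerebellum in the mean Dcx turned to −0.18, Camk4 to 0.13 and Calb1 to 0.13, without striatum Camk4 to 0.021, and without replicate 3 or hippocampal array 3 Dcx to −0.037 (up to 0.26 without replicate 1). Centring each array on its median gave 34 genes below each region. Without the 4 arrays with high choroid plexus sums, added after seeing the data, 70 genes were above and 21 below each region, 210 higher and 227 lower than cortex, the microglial list had 3 higher and the ependymal 2, the meningeal median was 0.57, and Neurod6 was no longer called against cortex (1.19, adjusted p = 0.0995). List medians moved with the median over probe sets, pseudocount 1 and pseudocount 32 to 1.3, 1.68 and 1.43 for CA1, to 0.65, 1.16 and 0.83 for dentate granule cells, to −0.69, −1.18 and −0.57 for midbrain and to 0.42, 0.74 and 0.40 for meninges (0.58 with quantile scaling and 0.58 centred); with pseudocounts 1 and 32 to 1.62 and 1.38 for excitatory neurons and to 0.28 and 0.17 for microglia; to 0.35 over probe sets for interneurons, to −0.75 with pseudocount 32 for thalamus and to −1.39 with pseudocount 1 for cerebellum. Later time points alone gave 1913 (H1), 1927 (H3), 1924 (R1), 1876 (R3), 1833 (R6), 1882 (R12) and 1875 (R24) genes higher. Fewer arrays enter most of these settings, and the cause was otherwise not tested. Each value given for a single gene was compared in each setting of the fit that gave it. Of these comparisons 2793 kept direction and call, 28 gained and 29 lost the call, and 18 turned. The setting with cortex and striatum alone in the mean held 16 of the lost calls and 12 of the turns.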

Other observations

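The genes named here were picked singly after their values were seen, from the 164 of 18193 genes above each region, and the other members of their families were not counted. Plakophilin 2 (Pkp2), a desmosome protein like Dsp, read 249, 242 and 229 in hippocampus, against 36.1 to 114 (median 54.9) elsewhere, a difference of 1.79 ± 0.11 on the log2 scale (limma adjusted p = 9.25e-09). The ephrin receptors Epha6 and Epha7, guidance receptors of growing axons, differed by 1.51 ± 0.08 and 1.75 ± 0.11 from the mean, and striatum was the next region for both. The leucine zipper factors Cebpb and Cebpd were 1.10 ± 0.07 and 1.76 ± 0.15 above the mean of the other regions.

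Lct and its direct chromosomal neighbour Mcm6, a subunit of the replicative helicase, were both above each region. Mcm6 read 115, 70.7 and 102 in hippocampus, against 26.6 to 60.9 (median 40.0) elsewhere, a difference of 0.97 ± 0.15 (limma adjusted p = 0.00029). Whether the signals of both genes are related was not tested. A further 23 probe sets that name no gene were above each region. E2f5 read 539, 29.2 and 27.0 in hippocampal arrays 1 to 3, and Cfap61 304, 22.6 and 26.7, so that a single array carried the signal of each, and neither was called.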
